A study of Mus musculus with 19 samples.

Results

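Endothelial cells line the blood vessels of the lung, and 10 genes that mark them were followed here in mice given benzo(a)pyrene (BaP), a carcinogen of smoke and soot that belongs to the polycyclic aromatic hydrocarbons. The genes were Gpihbp1, Ednrb, Car4, Kdr, Pecam1, Cdh5, Cldn5, Robo4, Klf2 and Tek. They were found on the array through the accession of each probe, and all 10 were among the 16535 symbols on the array and the 19315 genes tested. The mice were male, 25 weeks old and of the transgenic MutaMouse strain (strain 40.6), which all groups shared. The groups were 5 vehicle controls that received no BaP and 5, 4 and 5 mice given it at 25, 50 and 75 mg/kg/day. BaP was given by mouth every day for 28 days, and a piece of the lung was collected 3 days after dosing ended. On each of the 19 arrays the lung RNA of 1 mouse was labelled with Cy5 and a universal reference RNA, pooled from mouse cell lines, with Cy3. Values are log2 ratios of lung over reference unless a channel is named.

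The alveolar capillary bed is the thin-walled vessel network across which gas is exchanged. In mouse lung it is made of general capillary cells, which express Gpihbp1, and of aerocytes, large flat cells that express Car4 and Ednrb, while Pecam1, Cdh5, Cldn5 and Robo4 mark endothelial cells of most vessels. Growth factor signals through the receptors encoded by Kdr and Tek and the flow-responsive transcription factor encoded by Klf2 maintain these cells. A piece of lung mixes many cell types, and fewer cells of a type and less RNA per cell cannot be told apart in it.

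All 13 probes of these genes exceeded background clearly in the lung channel on 19 of 19 arrays, and 0 spots were saturated. In control lungs the 10 genes, each by its brightest probe, lay above the reference RNA by 0.51 (Klf2) to 6.37 (Cldn5) on the log2 scale. Probes of a gene could differ widely there. The other Klf2 probe lay at 3.90, and the Cdh5 probes at 5.79 (brightest) and 2.43. The arrays lay on 6 slides, each with more than 1 dose group. In the lung channel 19777 to 27279 of 43379 spots stood clearly above background, and 4 arrays were marked for evaluation by the scanner software's quality report (controls 1 and 3, mouse 12 of the 50 mg/kg/day group and mouse 20 of the 75 mg/kg/day group). Marker genes of muscle and fat also varied between the pieces of lung. A score, the mean log2 ratio of a marker list relative to the control mean, ranged for 8 skeletal muscle genes over -1.52 to 4.26 in controls, where control 5 was highest, -1.78 to -1.54 at 25 mg/kg/day, -1.78 to -0.09 at 50 and -1.90 to -1.08 at 75. For 9 heart muscle genes it spanned -2.80 to 0.84 at 75 mg/kg/day and -0.81 to 1.5 in controls, and for 8 fat cell genes -1.92 to 0.73 at 75 mg/kg/day and -1.13 to 1.51 in controls. Of these 3 lists, 0 genes passed the test at 75 mg/kg/day. Their part in the results that follow was not tested.

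At 75 mg/kg/day Gpihbp1, Ednrb and Klf2 fell and 0 of the 10 genes rose past the threshold, though Pecam1 and Kdr passed as higher under some alternatives. The call was a Benjamini-Hochberg adjusted p under 0.05 in limma's moderated test over 19315 genes, of which 4.15% passed it (1.51% lower and 2.64% higher). At 50 mg/kg/day 1 of the 10 genes passed, Car4, which rose, where 1.08% of all genes did (0.337% lower and 0.746% higher). At 25 mg/kg/day 0 of the 10 passed, where 0.0518% of all genes did (0.0104% lower and 0.0414% higher). The median difference of the 10 genes was 0.12 at 75 mg/kg/day, beside -0.01 over all genes. The falls of 3 genes thus stood beside positive differences in 6 of the other 7, none of which passed in this fit. With slide as a block, fixed or random, Pecam1 (0.42 and 0.43, adjusted p = 0.00792 and 0.013) and Kdr (0.45 and 0.46, adjusted p = 0.0436 and 0.0187) passed as higher at 75 mg/kg/day. Car4 passed there with the random block (0.43, adjusted p = 0.0362) and not with the fixed one. Median centring, which raised the median of all genes at that dose to 0.35, also called Kdr (0.97), Pecam1 (0.91), Car4 (0.76) and Robo4 (0.80) higher (adjusted p = 0.0188, 0.0172, 0.0396 and 0.0469). At 50 mg/kg/day the slide block, fixed and random, called Gpihbp1 (-0.85 and -0.80, adjusted p = 0.047 and 0.0212), Ednrb (-0.89 and -0.92, adjusted p = 0.0301 and 0.0135) and Klf2 (-0.35 and -0.36, adjusted p = 0.0406 and 0.0415) lower. None of these passed at that dose in the fit without a block. Car4 at 50 mg/kg/day passed with the random block and not with the fixed one.

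**Figure D1:**
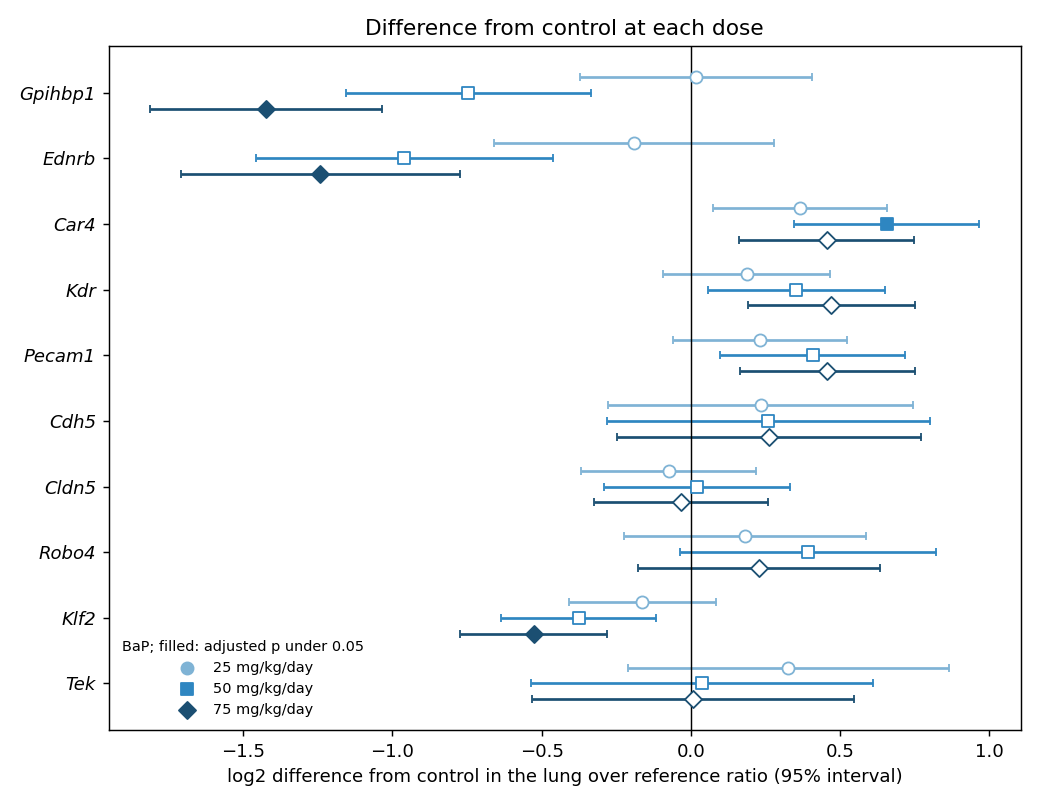
Differences of the 10 genes from control at 25, 50 and 75 mg/kg/day (log2 lung over reference ratio, horizontal axis) with 95% intervals; filled symbols passed the test. Gpihbp1 (-1.42), Ednrb (-1.24) and Klf2 (-0.53) lie left of 0 at 75 mg/kg/day, and Car4 is filled at 50 mg/kg/day (0.66).

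Gpihbp1 encodes the protein that carries lipoprotein lipase across capillary endothelium to the vessel lumen. Its log2 ratios were 4.79, 4.44, 4.47, 4.76 and 4.96 in controls, 4.88, 4.50, 4.84, 4.92 and 4.36 at 25, 4.06, 3.69, 3.62 and 4.38 at 50, and 3.37, 3.02, 3.24, 3.88 and 2.79 at 75 mg/kg/day. Controls and mice at 25 mg/kg/day overlapped, while every mouse given 50 or 75 mg/kg/day lay below every control. All mice of a dose lay below all controls in 1.96% of genes at 50 mg/kg/day and in 1.65% at 75. The fall at 75 mg/kg/day was 1.42 on the log2 scale (SE 0.19, 95% interval -1.81 to -1.04, adjusted p = 0.000106), a 2.68-fold lower ratio that ranked 31 from the lowest of the 19315 genes. The difference was -0.75 (SE 0.20, adjusted p = 0.0781) at 50 mg/kg/day and 0.02 (95% interval -0.37 to 0.41) at 25. Within slides it was lower at 75 mg/kg/day on 4 of 4 slides (mean -1.38) and lower at 50 on 3 of 3 (mean -0.94). When each array was centred on its median instead of loess, the median over all genes became 0.35, and Gpihbp1 at 75 mg/kg/day was at -0.76 and no longer passed (adjusted p = 0.116), or at -1.11 relative to that median. Its adjusted p lay between 1.89e-05 and 0.116 over all alternatives.

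Ednrb encodes the endothelin B receptor, which binds endothelins and clears them from the blood. The ratios were 1.81, 2.77, 3.05, 2.37 and 2.35 in controls, 2.15, 2.45, 1.90, 2.23 and 2.68 at 25, 0.92, 1.43, 1.96 and 1.73 at 50, and 1.09, 0.97, 1.07, 1.78 and 1.23 at 75 mg/kg/day. The mice at 75 mg/kg/day lay below every control, as in 1.65% of all genes, though mouse 19 came close to control 1. At 50 mg/kg/day 3 of 4 lay below every control. Ednrb fell by 1.24 on the log2 scale at 75 mg/kg/day (SE 0.22, 95% interval -1.71 to -0.77, adjusted p = 0.0026), a 2.37-fold lower ratio, and 2 of the 5 arrays had a reference signal above background. It was at -0.96 (SE 0.24, adjusted p = 0.0582) at 50 mg/kg/day and at -0.19 at 25. Within slides Ednrb was lower on 4 of 4 slides at 75 mg/kg/day (mean -1.24) and on 3 of 3 at 50 (mean -0.87). The other Ednrb probe, dimmer over all arrays, gave -0.72 at 75 mg/kg/day and did not pass (adjusted p = 0.066). With median centring the probe used above did not pass either (-0.87, adjusted p = 0.0609), and over all alternatives the adjusted p lay between 0.000194 and 0.066.

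Klf2 encodes the transcription factor that responds to blood flow and keeps endothelium quiescent. Its log2 ratios were 0.32, 0.35, 0.97, 0.32 and 0.58 in controls, 0.26, 0.28, 0.34, 0.32 and 0.52 at 25, -0.10, 0.16, 0.19 and 0.27 at 50, and 0.09, 0.22, -0.21, -0.11 and -0.10 at 75 mg/kg/day. Every mouse at 50 and 75 mg/kg/day lay below every control, as in 1.96% of all genes at 50 mg/kg/day and 1.65% at 75. The fall at 75 mg/kg/day was 0.53 on the log2 scale (SE 0.12, 95% interval -0.77 to -0.28, adjusted p = 0.0134), or 30.6%, and the sign turned with median centring, where Klf2 was at 0.38 and the median of all genes at 0.35. The difference was -0.38 at 50 mg/kg/day (adjusted p = 0.175) and -0.16 at 25. Klf2 was lower on 4 of 4 slides at 75 mg/kg/day (mean -0.54). Its other probe gave -0.44 and did not pass (adjusted p = 0.214), a normexp offset of 10 gave -0.38 (adjusted p = 0.14), the deposited table of the authors gave -0.28 (adjusted p = 0.304), and over all alternatives the adjusted p ran from 0.000662 to 0.439.

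Endothelial promoters commonly hold ETS factor motifs with the letters GGAAG, and KLF factors bind CACCC. The 250 bases before the start of Ednrb and Klf2, as given by RefSeq for the mouse build GRCm38.p6, are shown because both genes fell together and differ in these letters. Capitals mark GGAAG or CACCC on either strand, so that CTTCC and GGGTG are their reverse forms.
Ednrb, chr14:103843702-103843951, reverse strand: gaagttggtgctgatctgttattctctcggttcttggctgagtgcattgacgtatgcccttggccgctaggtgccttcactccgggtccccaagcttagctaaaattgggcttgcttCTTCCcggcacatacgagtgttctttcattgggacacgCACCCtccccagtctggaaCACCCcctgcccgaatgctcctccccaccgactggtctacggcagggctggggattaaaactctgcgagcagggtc
Klf2, chr8:72318812-72319061, forward strand: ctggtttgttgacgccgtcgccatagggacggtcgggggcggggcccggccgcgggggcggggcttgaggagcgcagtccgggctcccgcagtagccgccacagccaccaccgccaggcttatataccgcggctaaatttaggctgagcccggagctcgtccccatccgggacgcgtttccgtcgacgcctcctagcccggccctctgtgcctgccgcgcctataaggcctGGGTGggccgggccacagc
Ednrb held 1 match to GGAAG and 2 to CACCC, and Klf2 held 0 and 1. Of 32851 mouse promoter windows of this length, 64.1% held GGAAG and 52.0% CACCC, so such matches are common. A promoter entry was found for 7 of the 10 genes.

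Car4 encodes carbonic anhydrase 4, a membrane enzyme of the capillary lumen that speeds the release of carbon dioxide, and is a mark of aerocytes. Its ratios were 2.54, 2.77, 2.88, 2.75 and 2.97 in controls, 3.34, 3.14, 3.11, 3.05 and 3.1 at 25, 3.48, 3.39, 3.01 and 3.87 at 50, and 3.55, 2.89, 3.08, 3.46 and 3.20 at 75 mg/kg/day. All mice at 25 and 50 mg/kg/day and 4 of 5 at 75 lay above every control. A gene had all its mice above all controls in 0.995% of genes at 25 mg/kg/day and in 2.54% at 50. The rise at 50 mg/kg/day was 0.66 on the log2 scale (SE 0.15, 95% interval 0.35 to 0.97, adjusted p = 0.0373), a 1.58-fold higher ratio. It was 0.45 at 75 mg/kg/day (SE 0.14, adjusted p = 0.0745) and 0.37 at 25 (adjusted p = 0.521). Car4 was higher on every slide that held both a control and a mouse of a given dose, 4 at 25, 3 at 50 and 4 at 75 mg/kg/day. The call at 50 mg/kg/day was lost in 9 of the 19 fits that left out 1 mouse each, with values of 0.51 to 0.80. It was also lost with the processed signals of the scanner software (0.21, adjusted p = 0.752), the deposited table of the authors (0.68, 0.0591), slide as a block (0.55, 0.0715), no background subtraction (0.65, 0.0703), median centring (0.74, 0.489) and without the 4 marked arrays (0.59, 0.215), and over all alternatives the adjusted p lay between 0.00898 and 0.752. Ednrb and Car4, both genes of aerocytes, thus had differences of opposite sign at 50 and 75 mg/kg/day.

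Kdr encodes the main receptor of vascular endothelial growth factor (VEGF) on endothelium, and Pecam1 an adhesion molecule of cell contacts. Kdr had ratios of 5.15, 5.09, 5.62, 4.79 and 4.98 in controls, 5.44, 5.24, 5.30, 5.29 and 5.31 at 25 mg/kg/day, 5.64, 5.56, 5.19 and 5.53 at 50, and 5.70, 5.33, 5.45, 5.58 and 5.93 at 75. Pecam1 had 2.79, 2.83, 2.92, 2.22 and 2.83 in controls, 3.00, 3.01, 3.17, 2.56 and 3.03 at 25 mg/kg/day, 3.08, 3.17, 2.96 and 3.31 at 50, and 3.52, 3.09, 2.99, 3.31 and 2.99 at 75. Pecam1 at 50 and 75 mg/kg/day lay above every control, while control 3 kept Kdr's groups overlapping. All mice of a dose lay above all controls in 2.54% of genes at 50 mg/kg/day and in 3.05% at 75. The differences at 75 mg/kg/day were 0.47 for Kdr (SE 0.13, 95% interval 0.19 to 0.75, adjusted p = 0.0535) and 0.46 for Pecam1 (SE 0.14, adjusted p = 0.0729), and neither passed in the fit without a block. Kdr passed without the 4 marked arrays (0.56, adjusted p = 0.0094), and without control 3, mouse 14 or mouse 17, at values between 0.39 and 0.59 over the 19 fits, and was at -0.09 with the processed signals of the scanner software. Both genes had 10 spots per array, with a median SD among them of 0.21 for Kdr and 0.15 for Pecam1.

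Cdh5 encodes VE-cadherin, the adherens junction protein of endothelium, and Cldn5 its main tight junction claudin. Robo4 is an endothelial guidance receptor that restrains vessel leak, and Tek is the angiopoietin receptor Tie2. None of the 4 passed at any dose on the ratio. Cdh5 averaged 6.05 ± 0.34 at 75 mg/kg/day (SD, n = 5) and 5.79 ± 0.59 in controls (SD, n = 5), a difference of 0.26 (95% interval -0.25 to 0.77). The Cdh5 probe was above background in the reference channel on 3 of the 19 arrays, so its ratio rests on a reference signal near background. The other Cdh5 probe, above background there on 17 of the 19 arrays, gave 0.52 at 75 mg/kg/day (SE 0.16, adjusted p = 0.0854) and 0.54 at 50 (adjusted p = 0.17), and did not pass either. The reference signals of Car4, Kdr, Ednrb and Tek were dim too. Their control means above local background were 17.2, 19.4, 22.7 and 23.4, against 11.5 for the brightest Cdh5 probe. Cldn5 averaged 6.34 ± 0.18 at 75 mg/kg/day and 6.37 ± 0.17 in controls (SD, n = 5 each), a difference of -0.03 (95% interval -0.33 to 0.26), and Tek averaged 3.13 ± 0.36 at 75 mg/kg/day and 3.12 ± 0.29 in controls, a difference of 0.01 (95% interval -0.53 to 0.55). Robo4 was at 4.88 ± 0.27 at 75 mg/kg/day and 4.65 ± 0.29 in controls, a difference of 0.23 (SE 0.19, adjusted p = 0.597). The intervals of Cdh5, Tek and Robo4 (95% interval -0.18 to 0.63) are wide enough to hold changes of the size seen for Kdr.

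**Figure D2:**
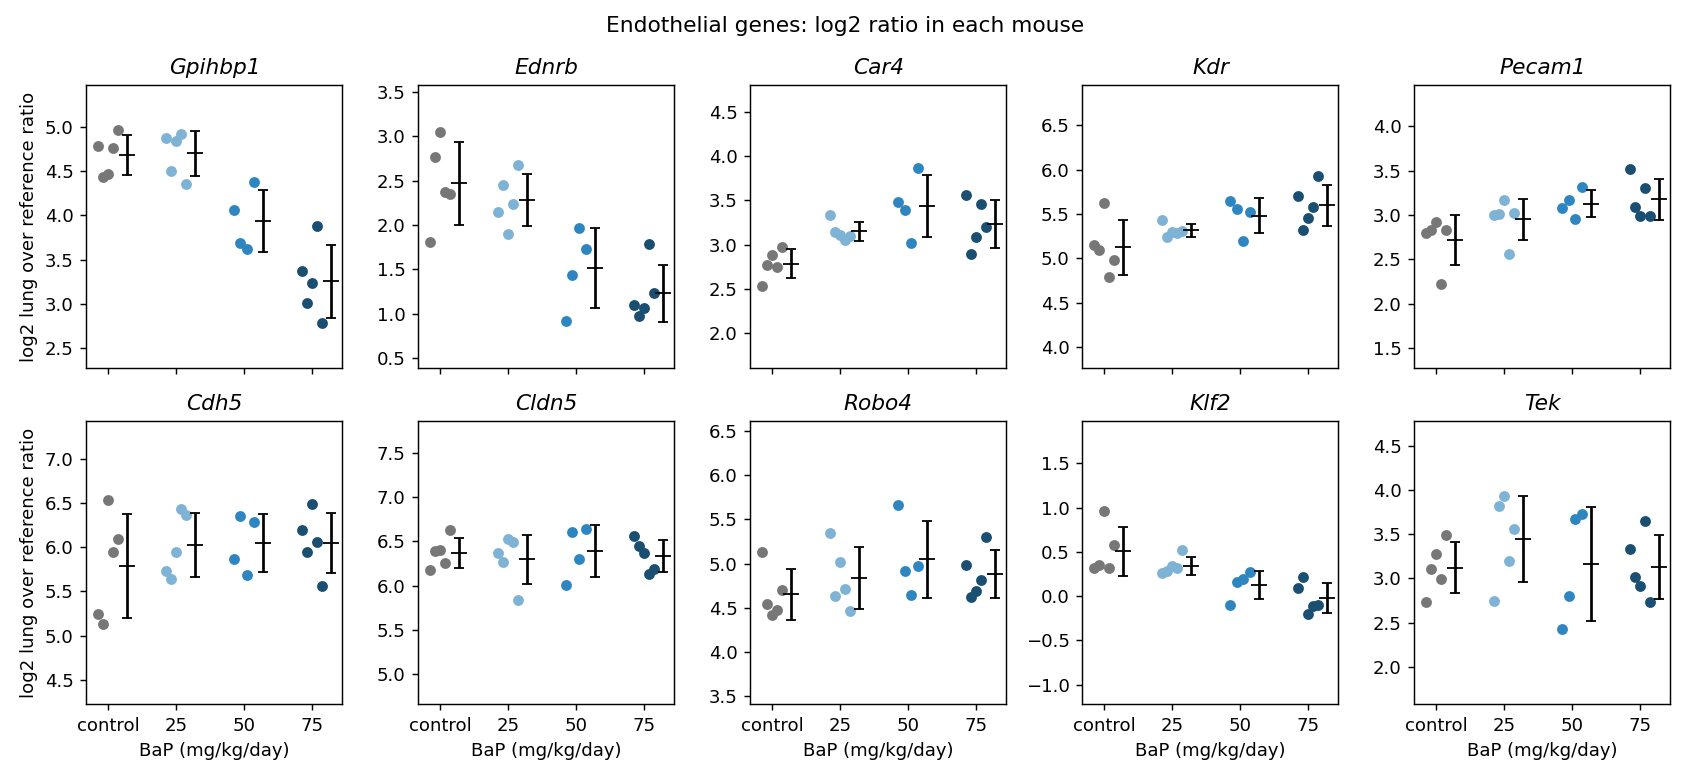
Log2 lung over reference ratio (vertical axis) of the 10 genes in each mouse by dose group, with mean and SD. Gpihbp1 and Klf2 at 50 and 75 mg/kg/day lie below every control, and the Cldn5 and Tek groups overlap at every dose.

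The channels were then taken apart, since a ratio hides a change that the lung and reference channels share. In the lung channel at 75 mg/kg/day 2 of the 10 genes fell (Gpihbp1 and Ednrb) and 4 rose (Robo4, Kdr, Cldn5 and Car4), where 3.22% of all genes passed (0.771% lower and 2.44% higher). Gpihbp1 was lower by more than in the ratio, at -1.89 on the log2 scale (SE 0.20), and Ednrb was at -1.20 (SE 0.23, adjusted p = 0.00475). Kdr was higher by 0.60 (adjusted p = 0.0179) and Car4 by 0.51 (adjusted p = 0.0299), while Pecam1 at 0.76 (adjusted p = 0.0511) and Klf2 at -0.38 (adjusted p = 0.336) did not pass. At 50 mg/kg/day Gpihbp1 fell by 1.12 in the lung channel (adjusted p = 0.0123) and Car4 was higher by 0.61 (adjusted p = 0.0434), where 0.518% of all genes passed (0.0725% lower and 0.445% higher). At 25 mg/kg/day 0 of the 10 passed in the lung channel, where 0.0207% of genes did, all of them higher. Leaving out 1 mouse took the lung channel call of Gpihbp1 at 50 mg/kg/day away only without mouse 13, and that of Car4 in 15 of 19 fits. Without the 4 marked arrays Gpihbp1 at 50 mg/kg/day (adjusted p = 0.0643), Car4 at 50 and 75 (0.202 and 0.083) and Cldn5 at 75 (0.115) did not pass in the lung channel. With slide as a block Pecam1 passed as higher at 75 mg/kg/day (0.68, adjusted p = 0.000558) and Robo4 at 50 (0.60, adjusted p = 0.0287). That block also called the reference signal of Pecam1 higher at the top dose (0.26, adjusted p = 0.0103). The rise of Pecam1 was thus partly shared by both channels, and the cause was not tested.

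**Figure D3:**
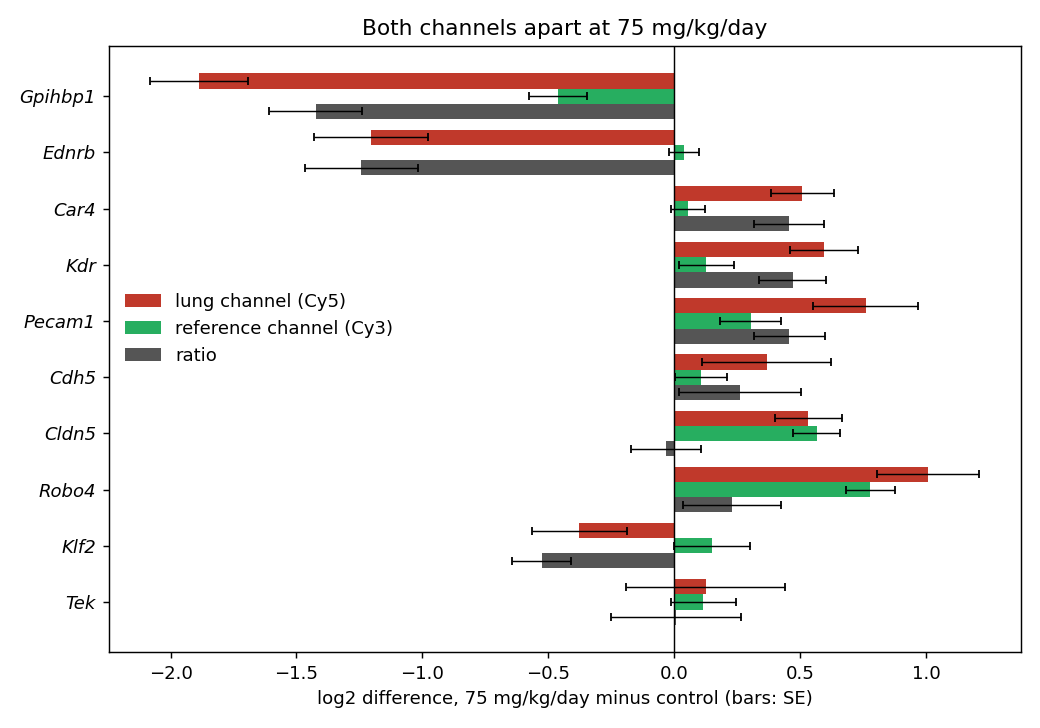
Differences between 75 mg/kg/day and control (log2, horizontal axis) in the lung channel, the reference channel and the ratio for the 10 genes, with SE bars. Robo4 (1.01 and 0.78) and Cldn5 (0.53 and 0.57) were higher in both channels, and their ratios differed by 0.23 and -0.03.

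Robo4 and Cldn5 were higher in the lung and the reference channel alike. The reference RNA was 1 pool on every array, yet the Robo4 reference channel was 7.30, 7.31, 7.28, 7.25 and 7.22 in controls, 7.60, 7.61, 7.19, 7.42 and 7.68 at 25 mg/kg/day, 7.70, 7.42, 7.68 and 7.36 at 50, and 7.98, 7.95, 8.40, 8.05 and 7.86 at 75 on the log2 intensity scale. All 5 arrays at 75 mg/kg/day lay above all others, and the share of all genes that do so in this channel was not counted. The difference from control was 0.78 (SE 0.10, adjusted p = 0.00256), the highest of the 19315 genes in that channel, where 16 genes (0.0828%) passed, all of them higher. In the lung channel Robo4 averaged 12.93 at 75 mg/kg/day and 11.92 in controls, a rise of 1.01 (SE 0.20, adjusted p = 0.00787), or 2.01-fold.

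For Cldn5 the reference channel held 7.79, 7.77, 7.43, 7.72 and 7.75 in controls, 8.18, 8.10, 7.71, 7.79 and 8.06 at 25 mg/kg/day, 8.12, 7.97, 8.00 and 8.08 at 50, and 8.13, 8.05, 8.44, 8.37 and 8.29 at 75. Mice at 50 and 75 mg/kg/day lay above every control, and here too the share of all genes in this channel was not counted. The rise at 75 mg/kg/day was 0.57 in the reference channel (SE 0.09, adjusted p = 0.0158) and 0.53 in the lung channel (SE 0.13, adjusted p = 0.0317), and each depended on single mice (17 and 12 of the 19 fits that left out 1 mouse kept the call). Of the 16 genes called in the reference channel, the lung channel was called higher in 3, Robo4, Cldn5 and BC058636 (named after its values were seen), and the others were mostly ribosomal protein genes. A channel taken alone carries differences that both channels of a spot share and the ratio removes, and their part in the shared rise was not tested. Without the 4 marked arrays neither Robo4 (0.84, adjusted p = 0.0731) nor Cldn5 (0.50, adjusted p = 0.301) passed in the reference channel, nor did Cldn5 with an offset of 10 (adjusted p = 0.0854). For Gpihbp1 the reference channel was at -0.46 (adjusted p = 0.277), and it passed as lower with slide as a block (-0.44, adjusted p = 0.00174). The 250 bases before the start of both genes are shown because these were the members called higher in both channels, with capitals as before.
Robo4, chr9:37401722-37401971, forward strand: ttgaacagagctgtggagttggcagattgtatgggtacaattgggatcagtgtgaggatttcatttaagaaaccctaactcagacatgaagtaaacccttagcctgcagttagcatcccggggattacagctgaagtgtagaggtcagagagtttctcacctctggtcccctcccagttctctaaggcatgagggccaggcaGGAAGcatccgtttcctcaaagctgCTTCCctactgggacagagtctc
Cldn5, chr16:18776597-18776846, forward strand: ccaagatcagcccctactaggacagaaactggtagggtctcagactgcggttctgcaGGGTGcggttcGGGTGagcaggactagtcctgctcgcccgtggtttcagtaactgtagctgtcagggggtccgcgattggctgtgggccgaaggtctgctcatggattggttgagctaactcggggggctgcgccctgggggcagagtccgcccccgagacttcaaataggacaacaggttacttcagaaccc
Robo4 held 2 matches to GGAAG and 0 to CACCC, and Cldn5 held 0 and 2.

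**Figure D4:**
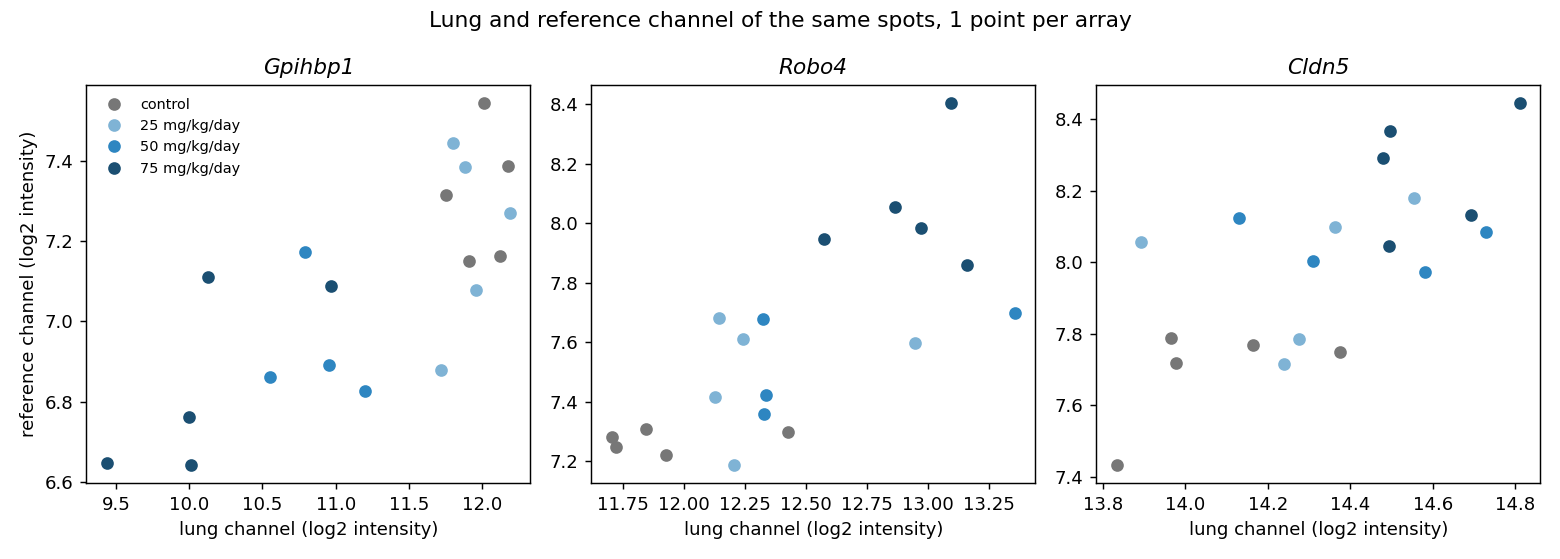
Lung channel (horizontal) and reference channel (vertical) log2 intensity of Gpihbp1, Robo4 and Cldn5, 1 point per array. The Robo4 arrays at 75 mg/kg/day lie above all others in the reference channel, at 7.86 or more, against at most 7.31 in controls.

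The slope over dose was fitted across all 19 mice, per 25 mg/kg/day. It was negative and passed for Gpihbp1 (-0.50, SE 0.07, adjusted p = 7.3e-05), Ednrb (-0.45, SE 0.07, adjusted p = 0.000511) and Klf2 (-0.18, SE 0.04, adjusted p = 0.00402). It was positive and passed for Kdr (0.16, SE 0.04, adjusted p = 0.027) and Pecam1 (0.15, SE 0.04, adjusted p = 0.0429), where 4.64% of all genes passed (1.83% lower and 2.82% higher). Over the 14 treated mice alone it passed for Gpihbp1 (-0.72, SE 0.09, adjusted p = 0.000976) and Ednrb (-0.53, SE 0.10, adjusted p = 0.02), where 0.549% of genes passed (0.166% lower and 0.383% higher). With equal numbers of mice at 75 and 25 mg/kg/day, this slope is the difference between those doses on another scale. The values at the middle dose do not move it, so the slope and that difference are not separate results. Between 75 and 25 mg/kg/day Gpihbp1 fell by 1.44 (SE 0.19, adjusted p = 0.00042), the lowest value of the 19315 genes, and Ednrb by 1.05 (SE 0.22, adjusted p = 0.0352), where 0.549% of genes passed (0.166% lower). Ednrb's difference between these doses passed in 11 of the 19 fits that left out 1 mouse, while Klf2 was at -0.37 and did not pass (adjusted p = 0.293). The slope calls of Kdr and Pecam1 were kept in 14 and 11 of the 19 fits, and that of Ednrb over treated mice in 13. The Pecam1 slope was also lost with no background subtraction (adjusted p = 0.0544), an offset of 10 (0.154), processed signals (0.07, adjusted p = 0.358), the deposited table of the authors (0.0713) and no filter on dim probes (0.0622). The Kdr and Klf2 slopes were lost with an offset of 10 (adjusted p = 0.127 and 0.0788) and with the deposited table of the authors (adjusted p = 0.0542 and 0.194), and their signs turned in Kdr with processed signals (-0.016) and in Klf2 with median centring (0.10). Between 75 and 25 mg/kg/day Ednrb was also lost with processed signals (adjusted p = 0.137), the deposited table of the authors (0.0634), median centring (0.58), no filter on dim probes (0.0522) and its other probe (0.0715). With median centring Gpihbp1 was lost between these doses (-1.05, adjusted p = 0.624) and for both slopes (adjusted p = 0.0782 over all mice and 0.226 over treated mice), and so was the slope of Ednrb over treated mice (0.369), which processed signals lost too (0.208). Klf2 passed as lower between these doses with the slide block (-0.37, adjusted p = 0.0198 fixed and 0.0349 random).

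Most of the other endothelial genes that passed at 75 mg/kg/day rose. Over all genes 2.64% passed as higher and 1.51% as lower, the shares to set beside this and the following lists. Of 34 further genes of most endothelial cells, 3 rose and 0 fell, with a median difference of 0.19 and 4 negative differences. The 3 were Mmrn2, an extracellular matrix glycoprotein of endothelium (2.37, SE 0.26, adjusted p = 1.5e-05), Cd34, a sialomucin of endothelium and stem cells (1.26, SE 0.20), and Myct1, an endothelial membrane protein (0.85, SE 0.15). In the lung channel 8 of the 34 rose and 0 fell, where 2.44% of all genes passed as higher. Of 12 further aerocyte genes, 3 rose and 1 fell, with a median of -0.08. Kitl, the ligand of the receptor Kit (0.67, SE 0.11), Apln, the peptide apelin (0.77, SE 0.13), and Prx, the scaffold periaxin (0.80, SE 0.21, adjusted p = 0.0392), rose, and Fibin, a secreted protein, fell (-0.80, SE 0.22, adjusted p = 0.0472). Of 12 further general capillary genes, Tspan7, a tetraspanin, rose (0.41, SE 0.09) and Hilpda, a lipid droplet protein, fell (-0.62, SE 0.16, adjusted p = 0.039). At 50 mg/kg/day Mmrn2 (1.72), Myct1 (0.78), Kitl (0.71), Tspan7 (0.41) and the lymphatic receptor Lyve1 (1.04) passed as well. Of all genes 0.746% passed as higher at that dose. Of the 19 fits that left out 1 mouse, Mmrn2 and Kitl passed at 50 mg/kg/day in 19, Myct1 in 14, Lyve1 in 5 and Tspan7 in 4. The calls of Prx, Hilpda and Fibin at 75 mg/kg/day were kept in 12, 13 and 7 of these 19 fits.

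**Figure D5:**
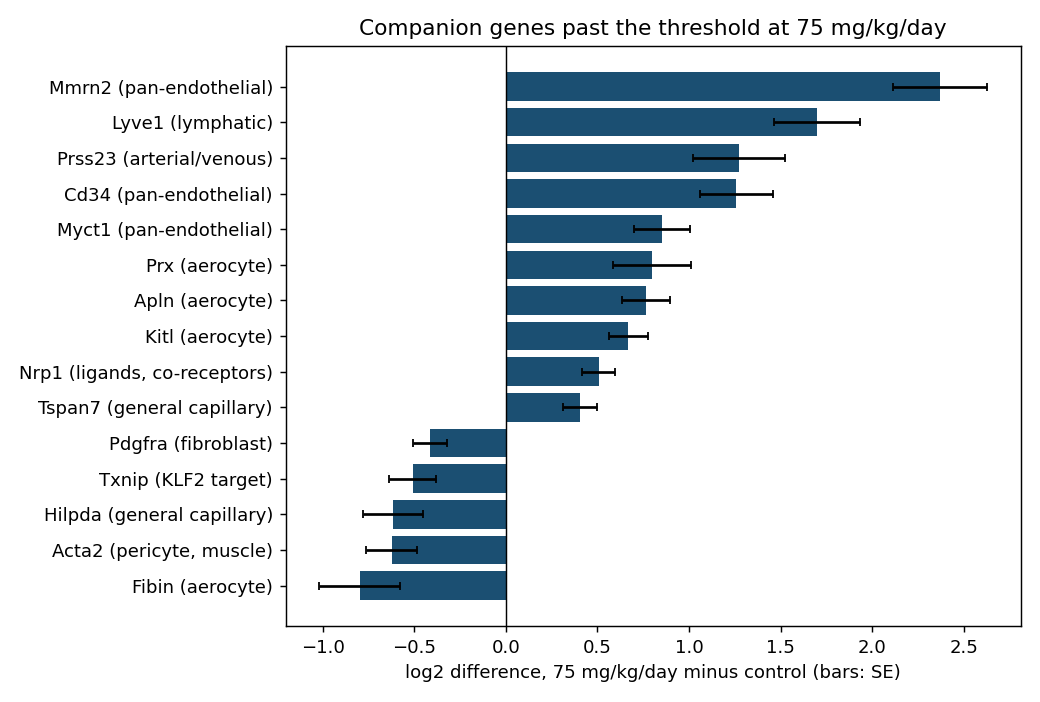
Further endothelial, signalling and stromal genes past the threshold at 75 mg/kg/day, as log2 difference from control (horizontal axis) with SE bars and the list each came from. The values run from -0.80 (Fibin) to 2.37 (Mmrn2).

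Of 14 arterial and venous genes 1 rose, the protease gene Prss23 (1.27, SE 0.25, adjusted p = 0.00568), while Vwf, which encodes von Willebrand factor, was at -0.16. Of 9 lymphatic genes 1 rose, Lyve1 (1.70, SE 0.23, adjusted p = 0.000193), a hyaluronan receptor. Of 16 ligands of the member receptors and their other receptors, 1 passed, Nrp1, a co-receptor of VEGF (0.51, SE 0.09, adjusted p = 0.00228). The VEGF ligands Vegfa (0.20), Vegfb (-0.24), Vegfc (0.39), Vegfd (0.34) and Pgf (0.00) and the decoy receptor Flt1 (0.04) did not pass. Angpt2 was at 0.55 (adjusted p = 0.0554) and Angpt1, the main ligand of Tek, at 0.09. Angpt2 passed as higher in 12 of its 31 alternatives, and Angpt1 passed in 0 of 30. The tested endothelin ligand genes, the other endothelin receptor gene Ednra and the converting enzyme gene Ece1 did not pass either. Edn1 was at 0.58 (adjusted p = 0.136), Edn3 at 0.06, Ednra at -0.08 and Ece1 at 0.25. Edn3 was above background on only 4 of the 19 arrays. Of the guidance genes, the Robo family ligands Slit2 and Slit3 were at 0.06 and -0.05, and Unc5b, a receptor that binds Robo4, was at 0.56 (adjusted p = 0.0582). Unc5b passed as higher in 8 of its 31 alternatives, and Slit2 and Slit3 passed in 0. The fall of Ednrb thus stood beside endothelin ligand genes of which none passed.

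Of 9 genes of lipid handling in capillaries 0 passed, with a median of -0.26. Cd36, which carries fatty acids into cells, was at -0.27, and Lpl, the lipase that Gpihbp1 carries, at -0.01. Of 13 junction partners 0 passed, with a median of 0.11, and Ptprb was at -0.19 and F11r at 0.07. Of 8 KLF2 targets 1 fell, Txnip, a redox regulator (-0.51, SE 0.13, adjusted p = 0.028), with a median of 0.13 in the list, and Cav1 was at -0.28. The signs of Hilpda, Txnip and Cav1 turned with median centring, at 0.15, 0.21 and 0.58, beside 0.35 for the median of all genes. Of the lists of other lung cells, the smooth muscle gene Acta2 fell (-0.62, SE 0.14, 1 of 11 genes) and so did the fibroblast gene Pdgfra (-0.41, SE 0.09, 1 of 10 genes), both turned to 0.22 and 0.18 by median centring, while 0 of 10 alveolar type 2, 7 type 1, 6 club and ciliated and 9 macrophage and platelet genes passed.

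The genes whose change from control over the 14 treated arrays was closest to that of Gpihbp1, by root mean square difference of log2 ratios, were Galnt15 (0.41), Ednrb (0.48), Mfap2 (0.48) and Igfbp6 (0.49). At 75 mg/kg/day Galnt15 was at -1.22, Mfap2 at -0.82 and Igfbp6 at -0.94. For Ednrb they were Tmeff2 (0.30), Rpl22l1 (0.39), Igfbp6 (0.41) and Cpne5 (0.46), and their values at 75 mg/kg/day were -1.11, -1.05, -0.94 and -0.70. Igfbp6 was in both sets. Genes were picked by closeness over these same arrays, so their low values at 75 mg/kg/day follow from the choice and are no separate result. The same holds for the shared gene, since Ednrb was itself among the closest to Gpihbp1.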

How the data were processed

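Lung RNA of 19 mice was measured on 2-colour arrays. The deposited intensity columns hold the median brightness of each spot and its local background per channel, per the file headers from Feature Extraction 10.7.3.1. The design had assumed mean spot intensities, which were not used here. A log2 ratio table deposited by the authors served as an alternative (r 0.995 to 0.998 with ratios from the same arrays), and no source used states its normalization. Then limma 3.58.1 (R 4.3.3) applied normexp with an offset of 50, which compresses dim spots, and loess; outlier spots (0.29%) were left out. A probe had to exceed background in lung RNA on 4 or more arrays (24501 did). The brightest probe stood for a gene, named through a RefSeq table of build GRCm38.p6, for 19315 genes. One model held a mean per dose group, with Benjamini-Hochberg adjustment at 0.05. Channels were taken after loess and scaled by Aquantile. Precision is limited by the number of arrays, and each mouse was 1 sample. The fit was tested on simulated data. Members and lists were chosen with earlier results of these data known. Text names the 10 genes, list genes past the threshold (at most 4 a list; fewer than 2 passed, the brightest up to 2), tested ligands and the 4 closest genes to Gpihbp1 and Ednrb. After values were seen, marker lists of other cells were narrowed to genes that passed.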

Additional observations from a re-analysis of the deposited data

Results flagged for a closer look

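In 2 of the 40 groups of 4 or 5 mice tested over the 10 genes, the lowest mouse lay far from the others, and chance gives about 1 in 20 such groups. Both were values of Pecam1, and both arrays lay on slide 4. Control 4 had a log2 ratio of 2.22 against 2.79 for the next control and 2.92 for the highest. Mouse 9 at 25 mg/kg/day had 2.56 against 3.00 for the next mouse of that group and 3.17 for the highest. On the same slide mouse 18 at 75 mg/kg/day had 2.99, the low end of its group, which mouse 20 on slide 5 shared. The part of the slide in these values was not tested.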

How the results depend on the processing

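Gpihbp1 and Ednrb stayed lower at 75 mg/kg/day under every alternative, and at 75 mg/kg/day Gpihbp1, Ednrb and Klf2 passed in all 19 fits that left out 1 mouse each (largest adjusted p 0.000516, 0.0109 and 0.0479). Counts below are genes past the threshold, against 10 at 25 mg/kg/day, 209 at 50, 801 at 75, 106 between 75 and 25, 897 for the slope over all mice and 106 over treated mice, 4, 100 and 621 in the lung channel at 25, 50 and 75, and 0, 0 and 16 in the reference channel (394 and 614 at an unadjusted p under 0.05 at 25 and 50). No cause of a change named here was tested. With a normexp offset of 10 the counts were 511 at 75, 123 at 50, 66 between 75 and 25, 12 in the lung channel at 25 and 1 in the reference channel at 75. Tek at 75 was then at -0.073, Pgf at -0.005 and Cldn5 at 50 at -0.056. With median centring in place of loess 529 genes passed at 75 (526 higher and 3 lower, against 510 and 291), 9 at 50, 0 at 25 (limma), 12 between 75 and 25, and 21 for the slope over treated mice. The median of all genes moved to 0.15 at 25, 0.14 at 50, 0.35 at 75, 0.20 between 75 and 25 and 0.11 for the slope. At 75 the values turned for Cldn5 (0.62), Klf2 (0.38), Hilpda (0.15), Vwf (0.54), Vegfb (0.54), Ednra (0.46), Slit3 (0.53), Edn3 (-0.02), Cd36 (0.35), Lpl (0.65), Ptprb (0.45), Txnip (0.21), Cav1 (0.58), Acta2 (0.22) and Pdgfra (0.18). Klf2 was at 0.006 at 50, 0.19 at 25, 0.19 between 75 and 25 and 0.10 for the slope, and Cldn5 at 25 was at 0.19. With the processed signals of Feature Extraction 1451 genes passed at 75, 36 at 25, 1599 for the slope and 178 over treated mice. Signs then turned at 75 for Kdr (-0.091), Cdh5 (-0.19), Tek (-0.40) and Myct1 (-0.018), at 50 for Kdr (-0.13), Cdh5 (-0.15), Cldn5 (-0.015) and Tek (-0.17), at 25 for Gpihbp1 (-0.015), Kdr (-0.24), Cdh5 (-0.27) and Tek (-0.26), and for the slope of Kdr (-0.016). With slide as a block 1767 genes passed at 75, 406 at 50, 293 between 75 and 25, 1739 and 304 for the slopes, 14, 348 and 1952 in the lung channel at 25, 50 and 75, and 9 and 265 in the reference channel at 50 and 75. Tek at 75 was at -0.080, Pgf at -0.012, Lpl at 0.098, Cldn5 at 50 at -0.064, Tek at 50 at -0.10 and Gpihbp1 at 25 at -0.028. With slide as a random block the counts were 41, 619 and 1849 at 25, 50 and 75, 296 between 75 and 25, 1838 and 335 for the slopes, 92, 533 and 2024 in the lung channel, and 17 and 168 in the reference channel at 50 and 75. Tek at 75 was at -0.043, Pgf at -0.007, Lpl at 0.040, Cldn5 at 50 at -0.025, Tek at 50 at -0.041 and Gpihbp1 at 25 at -0.009. Without background subtraction Tek at 75 was at -0.005, Edn3 at -0.062, Cldn5 at 50 at -0.035, Tek at 50 at -0.030 and Gpihbp1 at 25 at 0.00. Without the 4 arrays marked for evaluation 95 genes passed at 50, 3 at 25, 197 between 75 and 25, 245 for the slope over treated mice, 57 and 2 in the lung channel at 50 and 25 and 0 in the reference channel at 75. Ednra at 75 was then at 0.00, Ptprb at 0.011 and Gpihbp1 at 25 at -0.019. With the deposited table of the authors Edn3 at 75 was at -0.075, Slit2 at -0.005, Cldn5 at 50 at -0.056, Tek at 50 at -0.010 and Gpihbp1 at 25 at -0.012. The dimmer probe of Ednrb, an alternative chosen after seeing the data, gave 0.19 at 25. With only probes above background on all 19 arrays 7 genes passed in the lung channel at 25, and with channels scaled to their median 1 gene passed there and 5 in the reference channel at 75. Leaving out 1 mouse at a time gave 3 to 13 genes at 25, 75 to 216 at 50, 450 to 979 at 75, 47 to 118 between 75 and 25, 586 to 1039 and 49 to 144 for the slopes, 0 to 12, 48 to 110 and 316 to 773 in the lung channel, and 1 to 22 in the reference channel at 75. The ranges that crossed 0 were Cldn5 at 75 (-0.089 to 0.031), 50 (-0.063 to 0.15) and 25 (-0.13 to 0.042), Tek at 75 (-0.12 to 0.11), 50 (-0.15 to 0.28) and in the lung channel at 75 (-0.048 to 0.27), Ednra (-0.14 to 0.044), Slit3 (-0.11 to 0.001), Pgf (-0.065 to 0.045), Flt1 (-0.009 to 0.17), Slit2 (-0.017 to 0.16), Angpt1 (-0.013 to 0.21), Lpl (-0.17 to 0.11) and Gpihbp1 at 25 (-0.044 to 0.10). Car4 at 50 lost its call without control 1, 2, 3 or 4 or mouse 7, 10, 12, 13 or 15 (0.51 to 0.80, adjusted p up to 0.164), and Ednrb between 75 and 25 without mouse 6, 7, 9, 10, 16, 17, 18 or 20 (-1.19 to -0.95, adjusted p up to 0.12). The slope call of Kdr was lost without control 2, 4 or 5 or mouse 16 or 20 (0.13 to 0.19), that of Pecam1 without control 1, 2, 4 or 5 or mouse 13, 15, 16 or 19 (0.12 to 0.17), and that of Ednrb over treated mice without mouse 7, 9, 10, 16, 17 or 18 (-0.60 to -0.47). In the lung channel at 75 the call of Car4 was lost without control 1, 2 or 4 or mouse 16, 18 or 19 (0.43 to 0.57) and that of Cldn5 without control 1, 2, 3 or 4 or mouse 16, 18 or 19 (0.47 to 0.61), and in the reference channel that of Cldn5 without mouse 18 or 19 (0.50 to 0.62). At 50 Gpihbp1 gained a call without mouse 19 and Ednrb without control 1 or mouse 14 or 19, and at 75 Car4 without mouse 14, 15 or 17. Car4 in the lung channel at 50 was lost with channels scaled to their median, no background subtraction, no filter on dim probes, an offset of 10 and slide as a block (0.56 to 0.68, adjusted p 0.0536 to 0.0678). Every mouse had a number of its own, so the numbers paired no mice, and the slide was the unit that groups shared.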
